A study of Mus musculus with 6 samples.

Results

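The ERBB family of receptor tyrosine kinases and its ligands were followed through the cell types of mouse dorsal skin during the first 6 d after depilation. The 10 genes described are the receptors Egfr, Erbb2 and Erbb3, the 6 ligands Hbegf, Areg, Ereg, Epgn, Tgfa and Btc, which bind EGFR, and the ligand Nrg1, which binds ERBB3. They were taken by symbol from the 32285 genes counted, and all 10 were detected. Single-cell RNA sequencing (scRNA-seq) was performed on dorsal skin of wildtype FVB males aged 55 to 57 days, whose hair had been removed by shaving and waxing to start a new hair cycle. One library was made at each of 0, 4 and 16 h and 2, 4 and 6 d, and each library pooled equal numbers of cells from 2 mice. The labels give the same treatment for every library, so whether the skin taken at 0 h had been waxed is not given there, and no mutant or drug-treated skin is included. A difference between 2 time points is therefore a difference between 2 libraries and could not be tested, whereas cell types could be compared across the 6 libraries.

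EGFR family ligands are made as membrane-bound precursors that proteases of the ADAM family cut from the cell surface. A ligand brings receptors together in pairs, and the paired kinases start the RAS-MAPK and PI3K-AKT cascades. ERBB2 has no ligand of its own and pairs with the other receptors, whereas ERBB3 binds neuregulins and has little kinase activity. In skin, EGFR is known for sustaining basal keratinocytes and for its role in the hair cycle and in the closure of wounds.

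The 6 libraries held 61031 barcodes and between 72634390 and 112370376 unique molecular identifiers (UMIs) each, with a median per barcode of 5857.5 at 4 d to 10351 at 16 h. A total of 428 barcodes occurred in 2 libraries and 2 in 3 libraries. After filtering and removal of 4675 predicted doublets, 50502 cells were grouped without the use of the 10 genes. The classes were interfollicular epidermis (IFE) basal (16882 cells), IFE suprabasal (7590), upper follicle basal (6077), upper follicle suprabasal (4876), outer bulge (6804), inner bulge and companion layer (2074), sebaceous gland (1892), T cell (2717), Langerhans cell (802), melanocyte (582) and fibroblast with dermal papilla (206), and each name stands for cells like that type by their markers. Compared with all other cells, the classes had higher levels of 8 of 8 IFE basal, 10 of 11 outer bulge, 8 of 9 sebaceous gland, 7 of 7 melanocyte and 8 of 8 upper follicle suprabasal markers, but of only 6 of 10 upper follicle basal markers. The upper follicle suprabasal class was itself higher in 9 of the 10 upper follicle basal markers, and the inner bulge and companion layer in 8 of the outer bulge markers and 6 of 6 of its own. The 10 leading genes of the outer bulge class included Krt28, a keratin of the inner root sheath, and Basp1, and the 4 d library gave 3065 of its cells. At a finer clustering 3755 cells led by Basp1, Col14a1 and Lhx2 formed a cluster apart from 2909 outer bulge cells. The Basp1 cluster had as many markers of the inner root sheath and matrix as of the outer bulge, 6 each. From 0 h to 6 d it held 51, 63, 110, 231, 2387 and 913 cells. The finer outer bulge cluster held 350, 607, 540, 212, 487 and 713. The outer bulge values from 2 d on are thus of a mixed class. The sebaceous gland class held only 13 cells at 0 h, and the fibroblast class reached 20 cells only at 4 d and 6 d. Sums of fewer than 20 cells were not used. Levels are given in CPM (counts-per-million), the UMIs of the gene scaled to all UMIs in the summed cells of a class in a library. Levels of different genes were not compared.

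**Figure D1:**
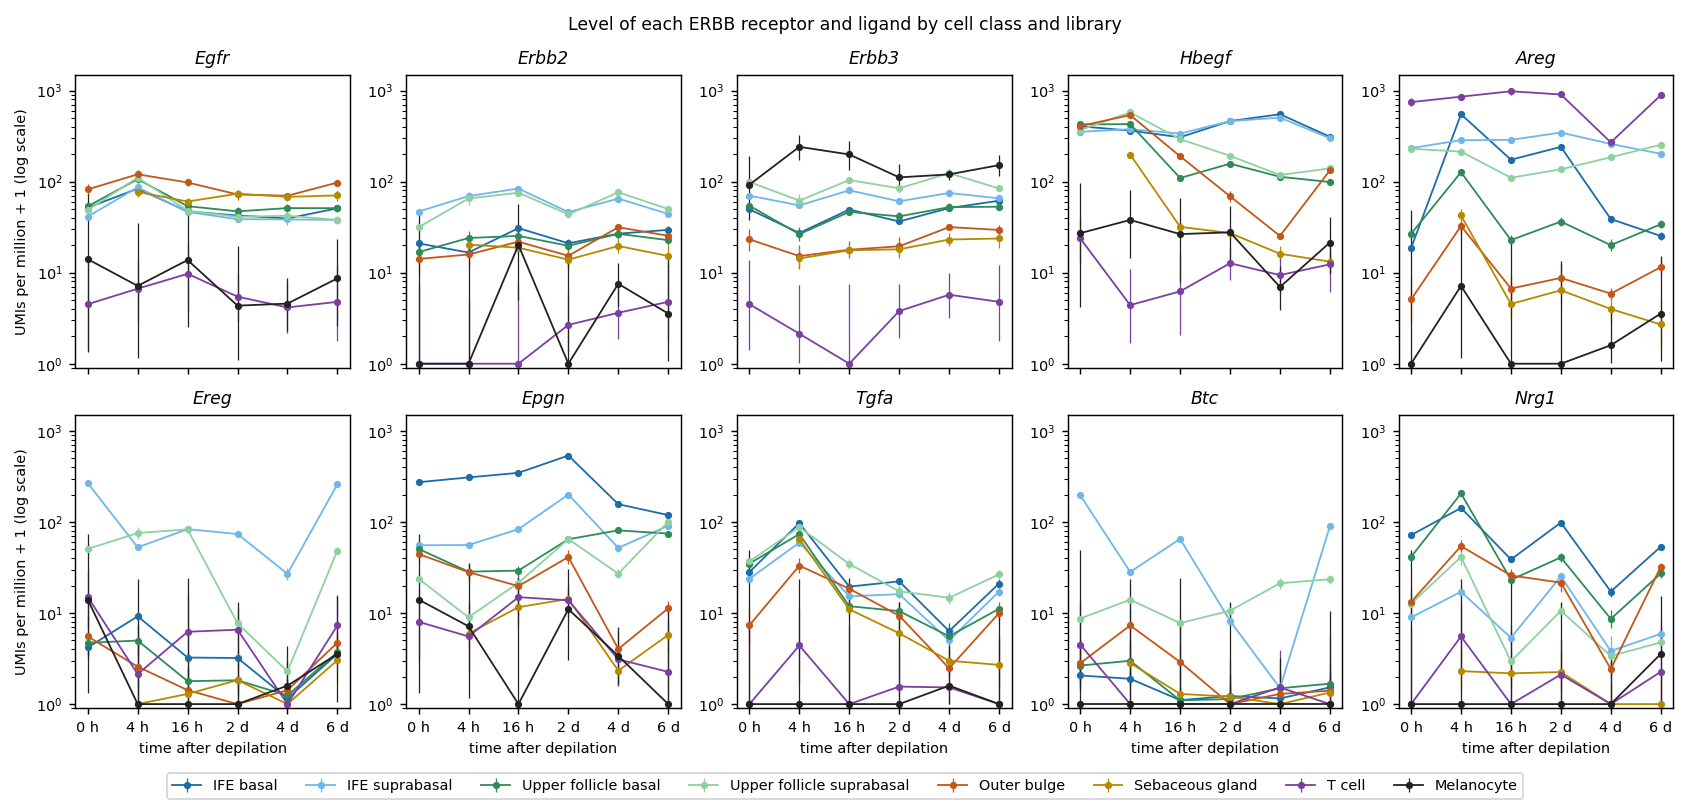
Level of each of the 10 genes (CPM plus 1, log scale) in 8 cell classes at 6 times after depilation. Each point is 1 library, the bars are 95% Poisson intervals of counting error, and lines join the libraries of a class. Areg in T cells lies above every other class shown in all 6 libraries, by 1.04-fold at 4 d, Erbb3 in melanocytes lies at 91.5 to 240 CPM, and Epgn is highest in IFE basal cells throughout.

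The receptors were spread over all keratinocyte classes, and each had a different distribution. Egfr, the receptor for most ligands of the family, had its highest mean level in the outer bulge, where the hair follicle stem cells reside. Its level there was 81.1, 119, 96.8, 71.3, 69.0 and 96.7 CPM at 0, 4 and 16 h and 2, 4 and 6 d. In IFE basal cells it was 50.8, 82.6, 46.1, 41.4, 38.4 and 49.9. The outer bulge was higher in every library, and the ranges of the classes overlapped. The difference was 0.57 ± 0.15 on the log2 scale (edgeR's quasi-likelihood test, Benjamini-Hochberg adjusted p = 0.00128), or 1.48-fold. The inner bulge and companion layer, at 61.7 to 109 CPM, was not separated from the outer bulge, being lower in 3 of 6 libraries. Between suprabasal and basal cells Egfr had log2 differences of -0.03 ± 0.14 in the IFE and -0.06 ± 0.15 in the upper follicle, and neither passed the test (edgeR's quasi-likelihood test, adjusted p = 0.963 and 0.8). In T cells Egfr was listed with 29 UMIs in all, at 3.15 to 8.72 CPM, against 1.98 to 3.50 that free keratinocyte RNA in the droplets would give. After thinning each cell to 2000 UMIs, 12.5% to 21.7% of outer bulge cells held an Egfr UMI in a library, against 0.216% to 1.68% of T cells. Without thinning these shares were 33.7% to 48.6% and 0.690% to 2.02%, at median depths of 4554 to 6991 and 2020.5 to 2701.5 UMIs per cell.

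Erbb2, the receptor without a ligand, was higher in suprabasal than in basal cells of both the IFE and the upper follicle. Its level in IFE suprabasal cells was 45.9, 68.4, 83.0, 45.3, 64.1 and 43.2 CPM from 0 h to 6 d, and in IFE basal cells 19.96, 15.6, 29.8, 20.02, 25.8 and 28.5. These ranges did not overlap. The log2 difference was 1.43 ± 0.19 (edgeR's quasi-likelihood test, adjusted p = 1.04e-08). In the upper follicle it was 1.47 ± 0.20 (edgeR's quasi-likelihood test, adjusted p = 2.2e-08), with suprabasal cells again higher in 6 of 6 libraries. In the sebaceous gland Erbb2 was 12.9 to 19.3 CPM in 5 libraries, and in the outer bulge 13.1 to 30.5. It overlaps Mien1 and Gm25048 on the opposite strand, and whether the counting used strand is not given in the sources used here.

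Erbb3, the neuregulin receptor, had its highest mean level in melanocytes, the pigment cells, whose precursors are of neural crest origin. The level in melanocytes was 91.5, 240, 198, 110, 119 and 151 CPM, from 7, 39, 31, 33, 200 and 59 UMIs. Melanocytes were higher than IFE basal cells in 6 of 6 libraries, by a median of 2.80-fold, and higher than upper follicle suprabasal cells in 4 of 6. Free keratinocyte RNA would give 1.08 to 10.2 CPM of Erbb3 in these cells. After thinning, 13.6% to 48.3% of 22 to 243 melanocytes per library held an Erbb3 UMI, and 0 to 1.30% of T cells did, whereas the unthinned shares were 17.2% to 56.9% and 0 to 1.20%. The median melanocyte depth was 1811 to 5003.5 UMIs.

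Among keratinocytes, Erbb3 was again higher in suprabasal than in basal cells. Upper follicle suprabasal cells had 98.2, 60.9, 103, 83.5, 123 and 83.1 CPM, and upper follicle basal cells 53.3, 25.5, 45.5, 40.5, 51.4 and 52.0. The ranges did not overlap, and the log2 difference was 1.17 ± 0.18 (edgeR's quasi-likelihood test, adjusted p = 3.64e-07). The difference between the layers of the IFE was smaller, at 0.73 ± 0.17 (edgeR's quasi-likelihood test, adjusted p = 0.000433). The outer bulge, at 14.2 to 30.7 CPM, was lower than upper follicle basal cells in 6 of 6 libraries, by 1.20 ± 0.19 on the log2 scale (edgeR's quasi-likelihood test, adjusted p = 8.27e-07). Erbb3 overlaps the microRNA gene Mir6917 on the same strand, and Egfr overlaps Egfros on the opposite strand.

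The ligand genes Epgn, Ereg, Areg and Btc lie next to each other on mouse chromosome 5, at chr5:91027464-91402994 of GRCm38. The region spans 375.5 kb and holds no other protein-coding gene in the gaps between them, which measure 39.4, 46.0 and 208.8 kb. The 4 genes had different distributions in skin. The 120 bases upstream of the transcription start of Areg and Btc are shown because the levels of these neighbours differed in T cells and in suprabasal cells (RefSeq, GRCm38.p6, the gene's own strand, 5′ to 3′). They lie at chr5:91139479-91139598 (plus strand) and chr5:91402995-91403114 (minus strand). Capitals mark TGACGTCA, the cAMP response element, and TATAAA, the TATA box.
Areg: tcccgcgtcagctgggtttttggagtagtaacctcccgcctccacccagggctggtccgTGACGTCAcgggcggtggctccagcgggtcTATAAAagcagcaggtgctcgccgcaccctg
Btc: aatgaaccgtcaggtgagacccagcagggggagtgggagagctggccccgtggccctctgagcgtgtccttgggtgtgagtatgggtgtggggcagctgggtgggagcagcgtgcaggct
Areg holds TGACGTCA with its first base at -61 and TATAAA at -31 from the start. Epgn, which is not shown, holds TATAAA at -86, and Btc holds neither. These motifs, chosen after the sequences were seen, and the AP-1 site TGANTCA were searched on both strands from 250 bases before to 50 bases after the start. TGACGTCA occurred in 1.79% of 32851 promoters of that length, TATAAA in 13.6% and TGANTCA in 7.81%, and no match overlapped another in these promoters. Of the 10 genes, 6 had a promoter in the table used (Egfr, Erbb2, Areg, Epgn, Tgfa and Btc), and none of the 6 held TGANTCA. A match of letters does not show that a factor binds there.

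Areg, which encodes amphiregulin, had its highest mean level in T cells and a wide range over the libraries in IFE basal cells. In T cells the level was 745, 856, 981, 905, 269 and 888 CPM from 0 h to 6 d. The 4 d library stood apart from the other 5. T cells were higher than every other class with at least 20 cells in all 6 libraries, although only by 1.04-fold over IFE suprabasal cells at 4 d, against a median of 3.11-fold. Free keratinocyte RNA would give 2.21 to 14.8 CPM of Areg in T cells. After thinning, 13.6% to 37.6% of T cells held an Areg UMI, against 0 to 2.85% of Langerhans cells, and the unthinned shares were 15.4% to 33.8% and 0 to 4.62%, at median depths of 2020.5 to 2701.5 and 3488 to 5006.5 UMIs. Within the T cells, the 2424 cells of the cluster led by Trdc, the constant region of the T cell receptor delta chain, had 773, 976, 1065, 961, 276 and 1004 CPM. The 293 cells of the cluster led by Gzmc, Ltb, Il7r and Icos had 62.8 to 473 in the 5 libraries with at least 20 of them. The Trdc cluster was thus low at 4 d by itself, with 435 UMIs from 628 cells.

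In IFE basal cells Areg was 17.6, 549, 173, 240, 37.8 and 24.3 CPM from 0 h to 6 d. It was low at 0 h, highest at 4 h, above 0 h at 16 h and 2 d, and nearer to the 0 h level at 4 d and 6 d. The share of IFE basal cells with an Areg UMI after thinning was 2.48% at 0 h (95% Clopper-Pearson interval 1.95 to 3.11) and 34.1% at 4 h. IFE suprabasal cells had 232, 284, 287, 344, 258 and 201, a far narrower range. They were higher than basal cells in 5 of 6 libraries, the exception being 4 h, and the log2 difference was 1.33 ± 0.47 (edgeR's quasi-likelihood test, adjusted p = 0.0182). Without the 0 h, 4 d or 6 d library the difference was 1.16, 1.01 or 1.13 and the adjusted p 0.0566, 0.138 or 0.0790 (edgeR's quasi-likelihood test). Upper follicle basal cells, at 25.7, 126, 21.8, 35.4, 19.1 and 33.0, also peaked at 4 h, and the outer bulge reached 31.6 at 4 h against 4.08 to 10.5 in the other libraries.

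Epgn, which encodes epigen, was highest in IFE basal cells in all 6 libraries. The level was 273, 308, 346, 536, 156 and 118 CPM, with the peak at 2 d, and was 54.5, 54.9, 82.4, 199, 50.9 and 90.2 in IFE suprabasal cells. Basal cells were higher in 6 of 6 libraries although the ranges overlapped, and the log2 difference of suprabasal from basal cells was -1.67 ± 0.40 (edgeR's quasi-likelihood test, adjusted p = 0.000493). Against IFE basal cells, Epgn was lower by 2.38 ± 0.41 in upper follicle basal cells and by 3.97 ± 0.45 in the outer bulge on the log2 scale (edgeR's quasi-likelihood test, adjusted p = 1.25e-05 and 2.45e-10). Of all its UMIs, 73.8% were in IFE basal cells, and after thinning 15.9% to 38.6% of IFE basal cells held one (33.9% to 69.3% unthinned, median depth 6104 to 10990.5), against 0.216% to 1.89% of T cells (0.345% to 3.23% unthinned). In upper follicle basal cells the course was different, at 49.6, 27.5, 28.3, 63.7, 80.0 and 73.6, with the lowest levels at 4 h and 16 h.

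Ereg and Btc, which encode epiregulin and betacellulin, were found almost only in suprabasal cells, with 87.5% and 91.2% of their UMIs in the IFE suprabasal class. Ereg in IFE suprabasal cells was 267, 51.8, 82.5, 72.8, 26.0 and 258 CPM, and in IFE basal cells it was 0.155 to 8.20. Btc in IFE suprabasal cells was 195, 27.3, 64.2, 7.20, 0.499 and 88.4, and in IFE basal cells 0.106 to 1.06. Ereg did not overlap between the classes, whereas Btc at 4 d (3 UMIs) fell within the basal range. The log2 differences were 5.55 ± 0.45 for Ereg and 6.91 ± 0.69 for Btc (edgeR's quasi-likelihood test, adjusted p = 4.86e-15 and 3.4e-11). In the upper follicle both were again higher in suprabasal cells in 6 of 6 libraries, by 4.48 ± 0.48 and 4.88 ± 0.73 (edgeR's quasi-likelihood test, adjusted p = 8.12e-11 and 5.92e-07). Follicle clusters led by Flg and Fcgbp resembled IFE suprabasal and basal cells by their markers, as given below. Btc in upper follicle suprabasal cells was 9.61 CPM at 2 d and 20.2 at 4 d, above IFE suprabasal cells in both libraries. At 0 h 4822 Btc UMIs lay in 140 of 1426 IFE suprabasal cells. After thinning, 0 to 3.95% of IFE suprabasal and 0.597% to 3.95% of upper follicle suprabasal cells held a Btc UMI in a library.

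The IFE suprabasal class consisted of 2 clusters, of which 6144 cells were led by Krt1 and Krt10 and 1446 by Lor and Flg2, genes of the outermost living layer. The Lor cluster had a median depth of 3.88 times that of its library. Ereg was 526, 125, 231, 189, 57.2 and 546 CPM in the Lor cluster and 0.303 to 4.76 in the Krt1 cluster, a median of 65.3-fold. Btc was 385, 67.3, 185, 18.5, 0.369 and 187 in the Lor cluster and 0.414 to 1.47 in the Krt1 cluster. Both genes in the Krt1 cluster were thus close to their range in basal cells. In the Lor cluster both were lowest at 4 d, when it held 87 cells and 1 Btc UMI, and Btc was then not above the Krt1 cluster, which held 2 UMIs. Areg in the Lor cluster was nearly constant at 346 to 434 CPM, while in the Krt1 cluster it was 63.99, 237, 256, 291, 135 and 67.3. In the Krt1 cluster Areg was thus lowest at 0 h and 6 d, as it was in basal cells. The Krt1 cluster was higher than the other cells in only 6 of the 11 IFE suprabasal markers. Erbb2 was higher in the Lor than in the Krt1 cluster in 6 of 6 libraries (median 1.47-fold) and Egfr lower in 6 of 6 (median 0.818-fold). At matched depth, after thinning to 2000 UMIs, 8.33% to 46.1% of Lor cluster cells held an Ereg UMI and 0 to 0.622% of Krt1 cluster cells did, against 51.2% to 83.5% and 0.270% to 2.66% unthinned. In T cells the thinned share was 0 to 2.79% and the unthinned share 0 to 3.27%, from 27 UMIs, and the level was above the one that free RNA would give in 5 of 6 libraries. In Langerhans cells 1 Ereg UMI was counted in all. The gene Gm19610 overlaps Ereg on the opposite strand.

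**Figure D2:**
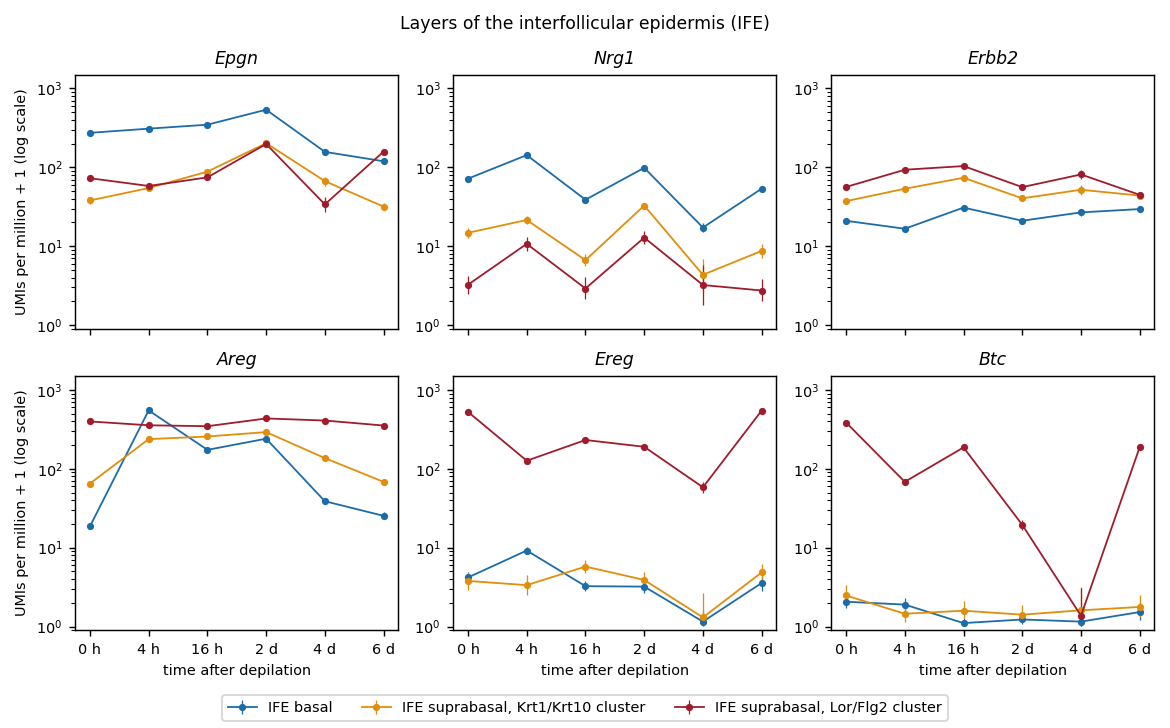
Levels of 6 of the genes (CPM plus 1, log scale) in IFE basal cells and in the 2 clusters of IFE suprabasal cells at 6 times after depilation, with 95% Poisson intervals of counting error. Epgn and Nrg1 are highest in basal cells, except Epgn at 6 d, Ereg is highest in the Lor cluster in every library, and Areg of the Lor cluster stays between 346 and 434 CPM.

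Hbegf, which encodes heparin-binding EGF-like growth factor, was present in both layers of the IFE at similar levels. IFE basal cells had 404, 362, 306, 462, 548 and 310 CPM and IFE suprabasal cells 351, 375, 336, 461, 504 and 298, with a log2 difference of 0.07 ± 0.42 (edgeR's quasi-likelihood test, adjusted p = 0.920). The follicle took another course. Outer bulge cells had 407, 537, 189, 68.0, 24.3 and 132 CPM, and upper follicle basal cells 425, 427, 109, 156, 112 and 97.9. At 0 h and 4 h both follicle classes were at or above the IFE, and in the later 4 libraries both were below it. The pooled difference from IFE basal cells, of -1.64 ± 0.44 in the outer bulge (edgeR's quasi-likelihood test, adjusted p = 0.0026) and -1.41 ± 0.43 in upper follicle basal cells (edgeR's quasi-likelihood test, adjusted p = 0.0142), was therefore an average over opposite libraries, with IFE basal cells higher in 4 of 6. After thinning, 32.3% to 47.8% of IFE basal cells held an Hbegf UMI (56.8% to 73.4% unthinned), against 0 to 5.26% of Langerhans cells (0 to 7.50% unthinned). The call in upper follicle basal cells was lost without the 16 h, 2 d, 4 d or 6 d library, at adjusted p = 0.0563, 0.0719, 0.0731 and 0.0621 (edgeR's quasi-likelihood test) and differences of -1.38, -1.32, -1.05 and -1.33.

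Tgfa, which encodes transforming growth factor alpha, had its highest level at 4 h in 6 of the 7 classes with at least 60 of its UMIs. In IFE basal cells it was 27.2, 96.4, 18.5, 21.3, 5.33 and 20.1 CPM, in upper follicle suprabasal cells 36.0, 86.9, 33.5, 16.3, 13.7 and 25.6, and in the sebaceous gland 63.9, 10.0, 4.99, 1.99 and 1.70 from 4 h to 6 d. Only the inner bulge and companion layer had its highest level later, with 12.7, 30.03, 15.8, 15.0, 36.4 and 43.4. Tgfa was lowest at 4 d in both IFE classes, both upper follicle classes and the outer bulge. Upper follicle suprabasal cells were higher than basal cells in 6 of 6 libraries, by 0.99 ± 0.35 on the log2 scale (edgeR's quasi-likelihood test, adjusted p = 0.0206). That call was lost without the 16 h, 2 d or 6 d library, at 0.86, 1.05 and 0.83 with adjusted p = 0.0900, 0.0628 and 0.120 (edgeR's quasi-likelihood test). Gm43917 overlaps Tgfa on the opposite strand.

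Nrg1, which encodes neuregulin 1 and was the only ERBB3 ligand among the 10 genes, belonged to basal cells. IFE basal cells had 70.8, 142, 37.8, 97.5, 16.2 and 52.6 CPM and IFE suprabasal cells 7.94, 16.2, 4.36, 24.3, 2.83 and 4.90. Basal cells were higher in each library, by 2.74 ± 0.34 on the log2 scale (edgeR's quasi-likelihood test, adjusted p = 1.82e-09), and by 2.18 ± 0.35 in the upper follicle (edgeR's quasi-likelihood test, adjusted p = 1.01e-06). Both layers had their lowest level at 4 d. Of IFE basal cells 3.41% to 23.3% held an Nrg1 UMI after thinning (7.86% to 58.6% unthinned), against 0 to 0.813% of Langerhans cells (0 to 1.54% unthinned). Upper follicle basal cells had 40.4, 205, 22.2, 39.8, 7.63 and 26.2, the highest of any class at 4 h. In the sebaceous gland only 19 Nrg1 UMIs were found in 5 libraries, and melanocytes, with the highest Erbb3, held 1 Nrg1 UMI. Nrg1 overlaps Gm22140 and Gm26578 on the opposite strand.

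The IFE basal class could be divided further at a finer clustering, which gave a cluster of 2459 cells led by Mmp3, which encodes a matrix metalloproteinase, of which 868 cells came from the 4 h library. Epgn, Tgfa and Nrg1 were higher in this cluster than in the remaining IFE basal cells, led by Fcgbp, in 6 of 6 libraries, with median ratios of 2.45, 2.69 and 2.70. Areg was higher in 5 of 6, and at 4 h it reached 1106 CPM in the Mmp3 cluster and 357 in the other. At 0 h the levels were 35.0 and 14.9. At 4 h the Mmp3 cluster was above the 856 of T cells. Erbb3 was higher in the Mmp3 cluster in 2 of 6 libraries, with a median ratio of 0.859.

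Across the 6 comparisons of cell classes, 38 of 60 tests of the 10 genes passed (edgeR's quasi-likelihood test on summed UMIs, Benjamini-Hochberg adjusted p of at most 0.05 over 14847 genes), and 40 had an unadjusted p under 0.05. In IFE suprabasal against basal cells 5 genes were higher (Erbb2, Erbb3, Areg, Ereg and Btc) and 2 lower (Epgn and Nrg1), where 18.2% and 25.1% of all genes were called higher and lower. In the upper follicle the same 5 and Tgfa were higher in suprabasal cells and Nrg1 was lower, against 17.7% and 19.3% of all genes. The 6 genes called in both comparisons had the same direction in both. The 2 comparisons are not of clearly separate tissues. Among the follicle cells, 3476 formed the Fcgbp cluster, which resembled IFE basal cells, and 2272 the Flg cluster, which resembled IFE suprabasal cells. How many of these lay in the upper follicle classes is not given here. Upper follicle basal cells against IFE basal cells showed 0 genes higher and 3 lower (Hbegf, Areg and Epgn), against 9.81% and 10.3% of all genes. The outer bulge against IFE basal cells had 1 gene higher (Egfr) and 7 lower (Erbb2, Erbb3, Hbegf, Areg, Epgn, Tgfa and Nrg1), against 20.4% and 15.9%. The outer bulge against upper follicle basal cells had 1 higher (Egfr) and 4 lower (Erbb3, Areg, Epgn and Nrg1), against 13.3% and 8.86%. The sebaceous gland against IFE basal cells, over 5 libraries, had 0 higher and 8 lower, with Egfr and Btc not passing, against 20.9% and 22.9% of all genes.

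The largest of these differences were for Btc and Ereg in the suprabasal layers and for Nrg1 and Epgn in the sebaceous gland, where the log2 differences from IFE basal cells were -6.65 ± 0.53 and -5.61 ± 0.53 (edgeR's quasi-likelihood test, adjusted p = 1.73e-15 and 1.05e-12). Sebaceous Egfr, at 59.4 to 75.9 CPM, differed from IFE basal cells by 0.28 ± 0.15 (edgeR's quasi-likelihood test, adjusted p = 0.144). Egfr, Epgn and Nrg1 in the outer bulge against upper follicle basal cells depended on single libraries. Egfr, at 0.48 ± 0.15, did not pass without the 16 h or 6 d library (0.41 and 0.43, adjusted p = 0.0723 and 0.0896, edgeR's quasi-likelihood test). Epgn, at -1.60 ± 0.43, did not pass without the 4 d library (-0.91, adjusted p = 0.136, edgeR's quasi-likelihood test). Nrg1, at -1.04 ± 0.33, did not pass without the 0 h, 4 h or 4 d library (-0.96, -0.81 and -0.87, adjusted p = 0.0673, 0.0812 and 0.0768, edgeR's quasi-likelihood test). Erbb2 in the outer bulge against IFE basal cells, at -0.52 ± 0.20, did not pass without the 16 h, 2 d or 6 d library (-0.47, -0.46 and -0.53, adjusted p = 0.114, 0.126 and 0.0609, edgeR's quasi-likelihood test). With DESeq2 this call was lost, and so were those of Nrg1 in the outer bulge against upper follicle basal cells and of Tgfa in upper follicle suprabasal cells (adjusted p = 0.0539, 0.0712 and 0.0730). The Erbb2 call was also lost with RLE scaling (adjusted p = 0.0665) and the Nrg1 call at the finer clustering (adjusted p = 0.0687), both by edgeR's quasi-likelihood test. With only the classes compared in the fit, Hbegf in the outer bulge and Areg in upper follicle basal cells against IFE basal cells, and Epgn in the outer bulge against upper follicle basal cells, did not pass (edgeR's quasi-likelihood test, adjusted p = 0.110, 0.0647 and 0.121). Without doublet removal Areg and Epgn in the outer bulge against upper follicle basal cells did not pass (edgeR's quasi-likelihood test, adjusted p = 0.0696 and 0.108). Without the library block 26 of the 38 calls were left. Ereg in the sebaceous gland, at -2.43 ± 0.74, did not pass without the 4 h library (-1.63, adjusted p = 0.0763, edgeR's quasi-likelihood test).

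**Figure D3:**
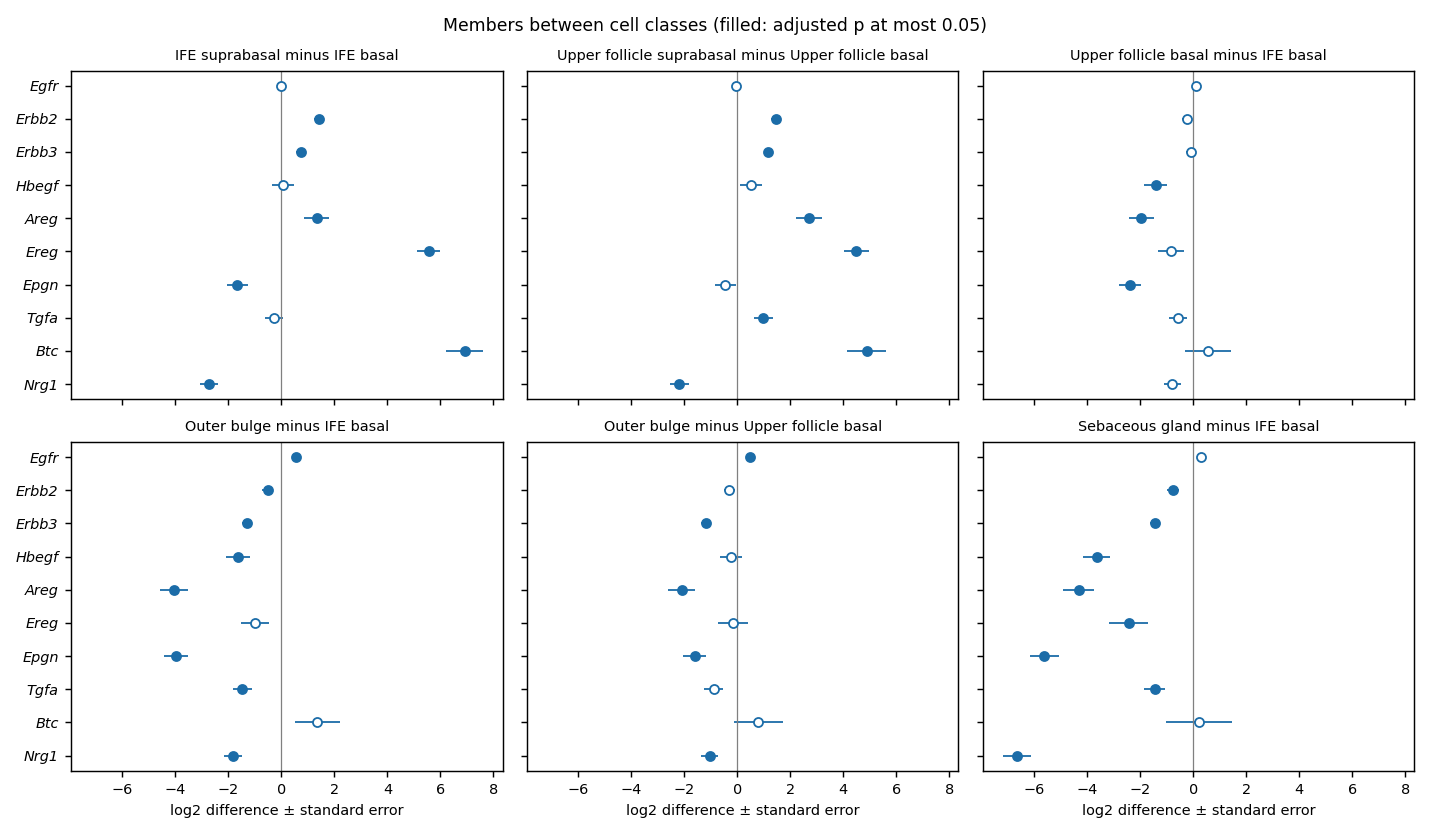
Difference of each of the 10 genes between 2 cell classes in 6 comparisons, as log2 difference with a standard error derived from edgeR's F statistic. Filled points have an adjusted p of at most 0.05. Erbb2, Erbb3, Areg, Ereg and Btc lie to the right of 0 in both suprabasal comparisons and Nrg1 to the left, and only Egfr lies to the right with a filled point in the outer bulge.

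Ranked by mean log2 level over the same libraries, neighbouring classes were compared in the 80 pairs that the 10 genes gave. The order within each pair thus came from the values that were tested. In 19 pairs the difference had the same sign in all 6 libraries, which gives the smallest p that 6 libraries allow (exact sign-flip permutation test, two-sided, p = 0.03125). No pair passed adjustment over the 80, the smallest adjusted value being 0.132 (exact sign-flip permutation test). T cells over IFE suprabasal cells for Areg, IFE basal over IFE suprabasal cells for Epgn, and upper follicle suprabasal over IFE suprabasal cells for Erbb3 were among the 19. The top 2 classes kept their order in every library only for Areg and Epgn, and those of the other 8 genes changed places in at least 1 library. As pairs with 1 sign in every library did not pass adjustment either, the test does not show that neighbouring classes were alike.

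The follicle cells were also clustered on their own, which gave 13 clusters, called here by their leading genes. The mean level of Egfr was highest in the cluster led by Krt24, S100a4 and Cd34, genes of the bulge, with 99.4, 111, 125, 124, 97.1 and 113 CPM. The clusters led by Cpa4, Anxa3 and Ptgs2 (133 and 83.3 at 4 h and 16 h, the only libraries with 20 cells or more) and by Sncg, Fgf18 and Them5 (66.3 to 120) came close to it. Erbb3 in the Krt24 cluster was only 9.88 to 18.6. Erbb2 and Erbb3 were highest in the cluster led by Defb6, Cst6 and Alox12e, at 30.2 to 94.1 and 68.7 to 143.

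Among the ligands, Hbegf in the Cpa4 cluster was 700 CPM at 4 h (599 UMIs) and 218 at 16 h. In the cluster led by Sfrp1, Gnmt and Lgals1 it was 754, 794, 287, 61.1, 35.4 and 198, above the Cpa4 cluster at both 4 h and 16 h and lowest at 4 d. By their markers the Fcgbp cluster resembled IFE basal cells, with 7 of 8 markers of that list higher, and the Flg cluster IFE suprabasal cells, with 9 of 11. By their means, Epgn and Nrg1 were highest in the cluster led by Fcgbp, Cyp26b1 and Ntrk2, Areg and Ereg in the cluster led by Flg and Krt1, and Tgfa and Btc in the cluster led by Cryab, Ctsl and Klk10. The cluster led by Krt35, Dcn and Basp1, found at 4 d and 6 d, held Egfr at 65.4 and 95.4 but Areg at 1.39 and 3.53 and Tgfa at 0.429 and 1.41. Tgfa was 42.9 and 61.7 at 4 d and 6 d in the cluster led by Pinlyp, Wfdc18 and Pla2g7, and 7.15 and 109 in that led by Krt25, Krt71 and Krt73, keratins of the inner root sheath.

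**Figure D4:**
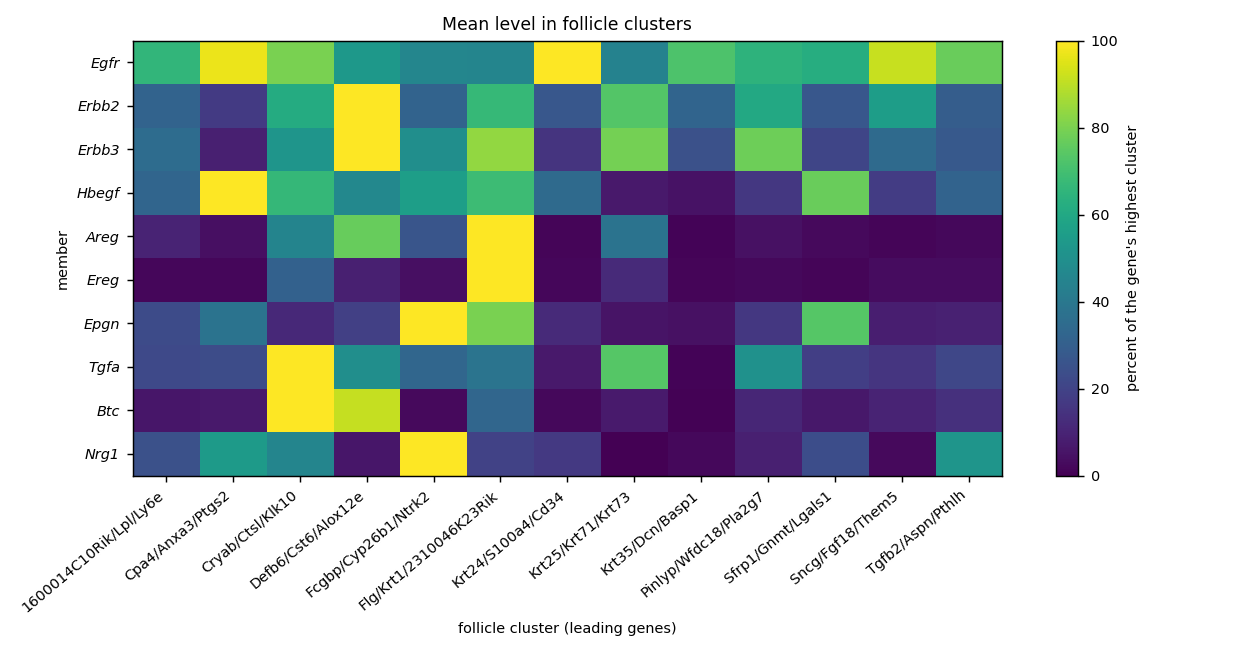
Mean level of each gene over the libraries with at least 20 cells in 13 clusters of follicle cells, as a percent of the gene's highest cluster (colour scale from 0 to 100). Areg and Ereg are highest in the Flg cluster and Epgn and Nrg1 in the Fcgbp cluster. The means rest on different libraries, and the Cpa4 cluster, highest for Hbegf, on 4 h and 16 h alone.

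Between the 0 h and the 4 h library, Areg, Tgfa and Nrg1 were higher at least 2-fold at 4 h in IFE basal, upper follicle basal and outer bulge cells alike. Areg went from 481 to 17122 UMIs in IFE basal cells, a ratio of levels of 31.1 (95% interval of counting error 28.4 to 34.2). The ratio was 4.90 (4.14 to 5.81) in upper follicle basal cells and 7.74 (3.92 to 17.4) in the outer bulge. For Tgfa the ratios were 3.54, 2.14 and 5.07, and for Nrg1 2.00, 5.06 and 4.36, in the same order. Of the genes with a mean level of at least 5 CPM, IFE basal cells had 4 of 9 at least 2-fold higher (Areg, Ereg, Tgfa and Nrg1) and 0 lower, against 17.7% and 17.6% of 8817 genes. Upper follicle basal cells had 4 of 8 higher (Egfr, Areg, Tgfa and Nrg1) and 1 lower (Erbb3), against 19.8% and 17.1% of 8887 genes. The outer bulge had 3 of 8 higher (Areg, Tgfa and Nrg1) and 0 lower, against 16.9% and 19.6% of 9242 genes. Nrg1 in IFE basal cells was just under 2-fold at a finer clustering, which left 3 genes, and Egfr in upper follicle basal cells with TMM scaling, which also left 3. Epgn in the outer bulge was 0.624 times its 0 h level but 3.72 times (95% interval 1.93 to 7.86) at the finer clustering, where 11 Epgn UMIs were left at 0 h. The makeup of the classes also differed between these libraries. The Mmp3 cluster held 350 IFE basal cells at 0 h and 868 at 4 h, and the Cpa4 cluster of follicle cells 0 and 223. The part of these shifts in the ratios was not tested. No test was possible with 1 library at each time.

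Egfr and Erbb3 moved in opposite directions between these libraries, and Erbb2 differed by class. Egfr was 1.63, 2.01 and 1.47 times its 0 h level at 4 h in IFE basal, upper follicle basal and outer bulge cells. The intervals of these ratios cover counting error only, not the spread between cells, mice or libraries, and no difference was tested. Erbb3 was 0.540, 0.478 and 0.639 times its 0 h level. Erbb2 was 0.783 (0.692 to 0.887), 1.46 (1.11 to 1.92) and 1.13 (0.696 to 1.86) times its 0 h level in the same order. From 4 h to 16 h, Erbb3 returned to 48.4 CPM in IFE basal cells from 26.3, and Egfr to 46.1 from 82.6. Both were then near their 0 h levels of 48.6 and 50.8.

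**Figure D5:**
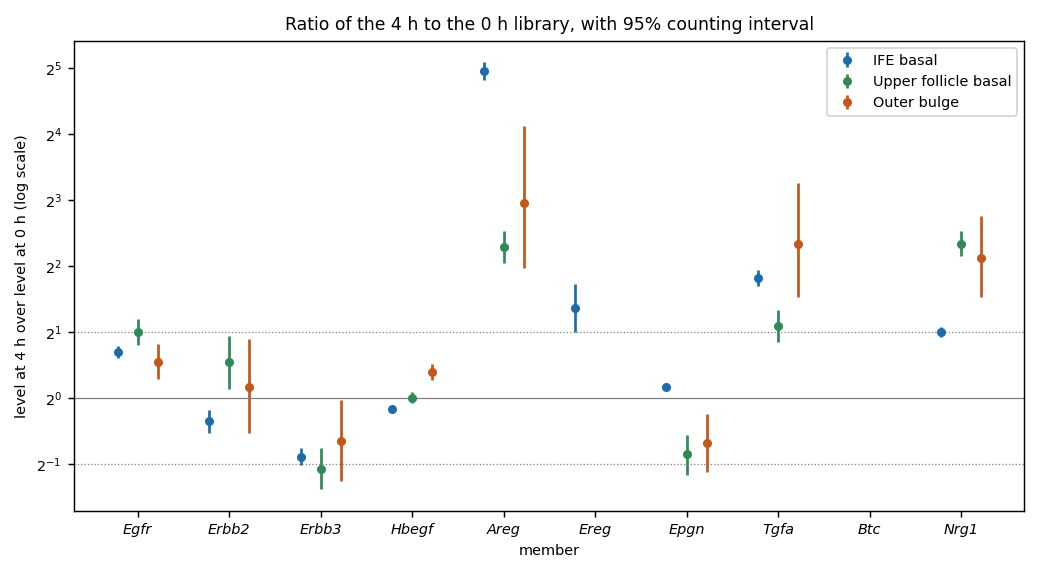
Ratio of the level at 4 h to that at 0 h (log scale) for the genes with a mean level of at least 5 CPM in 3 cell classes. Points are ratios of 2 libraries and bars are 95% intervals of counting error; dotted lines mark 2-fold. Areg in IFE basal cells has the largest ratio, 31.1, and Erbb3 lies below 1 in all 3 classes.

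Over the whole course, 0 of 59 tests of the 10 genes in 8 classes passed (edgeR's quasi-likelihood test of a spline in time with 3 degrees of freedom, Benjamini-Hochberg adjusted). Of the 59, 12 had an unadjusted p under 0.05, and the smallest adjusted p was 0.102, for Areg in the inner bulge and companion layer. The same test called 0% of genes in IFE basal, IFE suprabasal, upper follicle basal and upper follicle suprabasal cells, 0.0438% in the outer bulge, 0.0514% in T cells, 1.13% in the inner bulge and companion layer and 5.6% in melanocytes. On simulated IFE basal counts with log2 changes linear in hours, this design recovered 77% of genes changed 16-fold and 9% of those changed 4-fold. Such changes of 4-fold were thus mostly not detectable, and changes confined to 1 library were not simulated. Areg in IFE basal cells, at 17.6 CPM at 0 h and 549 at 4 h, had an unadjusted p of 0.283 (edgeR's quasi-likelihood test). DESeq2's likelihood ratio test of the same spline called 3 of the 59. The edgeR test called 12 without the 0 h library, 6 without 4 h, 1 without 16 h, 7 without 2 d, 0 without 4 d and 2 without 6 d. With 1 library left out, the spline was fitted to only 5 sums. The share of all genes called in these fits is not given here, so the counts are not a result about the 10 genes. The difference in linear time trend between classes passed in 0 of 30 tests (edgeR's quasi-likelihood test), with 5 at an unadjusted p under 0.05 and a smallest adjusted p of 0.204, and 0% of all genes passed in each of the 3 comparisons. Without the 6 d library 2 passed, Epgn and Hbegf in the outer bulge against IFE basal cells. The share of all genes that passed in that fit is not given here, so this is not a result about these genes in particular.

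The 4 d library had the lowest level of several of the genes in several classes at once. These were Egfr, Ereg, Tgfa and Nrg1 in IFE basal cells, Ereg, Epgn, Tgfa, Btc and Nrg1 in IFE suprabasal cells, Areg, Ereg, Tgfa and Nrg1 in upper follicle basal cells, Egfr, Hbegf, Epgn, Tgfa and Nrg1 in the outer bulge, Hbegf, Ereg and Tgfa in upper follicle suprabasal cells, Hbegf in the inner bulge and companion layer, Epgn in the sebaceous gland and Areg in T cells, among genes with at least 60 UMIs in the class. It had the most barcodes (13878) and the lowest median depth (5857.5 UMIs per barcode) of the 6 libraries, and it held 457 IFE suprabasal cells against 1234 to 1638 in the others. The part of these values in the low levels was not tested. As each time is 1 library, time and library cannot be told apart. The share of all genes with their lowest level at 4 d is not given here for any class. The list is therefore not a result about the ERBB genes in particular. Hbegf in both IFE classes was instead highest at 4 d.

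Genes of the pathway were read in the same comparisons. The scaling of the libraries moved the median of all genes by at most 0.13 on the log2 scale, in the sebaceous gland. Of the proteins that process the ligands at the cell surface (Adam10, Adam17, Rhbdf1 and Rhbdf2), Rhbdf2, an adaptor of the sheddase ADAM17, was higher in suprabasal cells by 2.52 on the log2 scale in the IFE and by 1.86 in the upper follicle. Adam17, the sheddase itself, was higher by 0.43 and 0.88. In all, 2 of 4 and 3 of 4 of this list were higher in the 2 suprabasal comparisons, where 18.2% and 17.7% of all genes were, and 0 lower, where 25.1% and 19.3% were, with median log2 differences of 0.41 and 0.67 against -0.11 and -0.05 for all genes. In the outer bulge against IFE basal cells Adam17 (-0.93) and Adam10 (-0.46) were lower and Rhbdf2 (0.76) higher.

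Of 13 negative regulators, 2 were higher and 6 lower in IFE suprabasal against basal cells, against 18.2% and 25.1% of all genes, with a median of -0.25. Spred2 (-2.15), an inhibitor of RAS-MAPK signalling, and Lrig1 (-1.20), a transmembrane inhibitor of ERBB receptors, were lower, and Spry1 (1.48) was higher. In upper follicle basal against IFE basal cells 2 were higher, Lrig1 (2.19) and Spry4 (1.72), and 3 lower, of which Errfi1 (-0.82), an EGFR inhibitor, differed most, against 9.81% and 10.3% of all genes. In the outer bulge against IFE basal cells 5 were higher and 5 lower, led by Spry4 (3.58), Dusp4 (1.74) and Cblb (-1.61), a ubiquitin ligase, against 20.4% and 15.9% of all genes. In the sebaceous gland, where 8 of the 10 ERBB genes were lower, Dusp4, a MAPK phosphatase, was higher by 7.14 and Spry4 by 5.09, among 4 higher and 4 lower, against 20.9% and 22.9% of all genes. Lrig1 was one of the markers used to name the upper follicle, so its difference there is not independent of the class.

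Of 8 transcripts induced by the pathway, none was higher and 3 were lower in IFE suprabasal cells (Etv4 -2.00, Etv5 -1.69 and Ier3 -1.16), and 0 and 2 in upper follicle suprabasal cells (Etv5 -2.60 and Etv4 -2.11). The shares of all genes were 18.2% higher and 25.1% lower in the IFE and 17.7% and 19.3% in the upper follicle, near the 2 of 8 lower there. In the outer bulge against IFE basal cells Fosl1, an AP-1 subunit, was lower by 2.26 and Etv4 (1.88) and Phlda1 (1.30) were higher, with 3 higher and 3 lower in all, against 20.4% and 15.9% of all genes. In the sebaceous gland 1 was higher and 5 lower, with differences of -4.43 for Fosl1 and -2.53 for Fos, against 20.9% and 22.9% of all genes. Of 19 signal transduction genes, 6 were higher and 3 lower in IFE suprabasal and 7 and 1 in upper follicle suprabasal cells, led in both by Mapk3, Plcg1 and Gab1, against the same shares of all genes as above for these comparisons (18.2% and 25.1%, and 17.7% and 19.3%). Gab1, a docking protein downstream of the receptors, differed by 1.04 and 1.12. All of these calls are from edgeR's quasi-likelihood test, adjusted over all genes.

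The remaining receptor and ligand genes were sparse. Erbb4 had 13 UMIs and Egf 178 in all analysed cells, and Nrg3 had 0 among 50502 cells, which allows up to 3 UMIs. Nrg4 had 1288 UMIs, of which 73.4% were in the sebaceous gland, at 23.7, 39.9, 39.1, 44.0 and 42.1 CPM from 4 h to 6 d, and it exceeded IFE basal cells by 5.96 ± 0.35 on the log2 scale (edgeR's quasi-likelihood test, adjusted p = 5.55e-21). Of the ligand genes tested, it was the only one higher in the sebaceous gland than in IFE basal cells by that test. Nrg2, with 1938 UMIs, was lower in the outer bulge than in IFE basal cells by 3.41 ± 0.49 (edgeR's quasi-likelihood test, adjusted p = 6.31e-08). Mcl1, the anti-apoptotic gene on which the study centred, was lower than in IFE basal cells by 0.85 ± 0.16 in upper follicle basal cells, by 1.10 ± 0.16 in the outer bulge and by 1.90 ± 0.18 in the sebaceous gland (edgeR's quasi-likelihood test, adjusted p = 3.67e-05, 9.38e-08 and 1.43e-13).

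Over the 61 class by library sums, the genes whose levels followed each member most closely were described by Pearson's r of log2 levels among 13615 genes. The sums share libraries and depth, and no test was made. Egfr went with S100a16 (r = 0.927) and Trp63 (0.926), the latter a transcription factor of basal keratinocytes, Erbb2 with Fam83f (0.884) and Trim29 (0.880), and Erbb3 with Gab1 (0.883) and Sptbn1 (0.866). Ereg went with Cnfn (0.897) and Alox12b (0.875) and Btc with Lipk (0.913) and Acp7 (0.846). Cnfn, Alox12b and Lipk are known from the cornified layer of the epidermis. Epgn went with Fcgbp (0.871) and Wnt3 (0.818), Nrg1 with Itga2 (0.836) and Slco2a1 (0.832), Hbegf with Sfn (0.908) and Tgfa with Ltb4r2 (0.881) and Urah (0.872). Areg had the weakest leading gene, Trbc2 (0.831), a constant region of the T cell receptor beta chain, followed by Nbeal2 (0.819).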

How the data were processed

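Droplet 3′ single-cell RNA sequencing was performed by the authors on 6 libraries of dorsal skin, and the deposited files hold unnormalized counts of UMIs for each gene in each barcode (mm10, Cell Ranger 6.1.2, per the labels and the submitters' processing notes). Barcodes with 500 to 7000 genes and at most 10% mitochondrial UMIs were kept, and the barcodes with the highest Scrublet scores were removed as doublets, at a rate of 0.8% per 1000 barcodes, because Scrublet's own threshold marked 1 to 3 in 4 of the 6 libraries. Cells were clustered with Seurat 5.3.0 (R 4.3.3) on 2000 integration features and 30 principal components at resolution 0.2 (0.4 as an alternative and for follicle cells), leaving out 502 genes, which include the 10 genes, the pathway lists and cell cycle genes. Clusters were named from marker lists, since no cell annotation was used here. The members and lists were chosen with earlier results of these data known.

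UMIs were summed per class and library with at least 20 cells. Classes were compared with edgeR 4.0.16 (quasi-likelihood test with library as a block, TMM scaling, limma 3.58.1), and time was fitted as a spline with 3 degrees of freedom, both adjusted by the Benjamini-Hochberg method at 0.05 over all genes that passed the filter on low counts. The value after ± is a standard error, taken as the absolute log2 difference divided by the square root of edgeR's F statistic. DESeq2 1.42.0 and other scalings, filters, clusterings and left-out libraries served as alternatives. Levels of each class in a library carry exact 95% Poisson intervals and shares 95% Clopper-Pearson intervals, which cover counting error only. Cells were thinned to 2000 UMIs for shares, and shallower cells were left out. The level that free RNA would give was taken from the keratin counts of non-keratinocytes. Neighbouring classes were compared by exact sign-flip permutation on log2 levels with a pseudocount of 1. Figures and remaining steps used Python 3.11.15, numpy 2.4.6 and scipy 1.17.1.

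The genes named are the 10 members, the remaining receptors and ligands (Erbb4, Egf, Nrg2, Nrg3 and Nrg4), Mcl1, up to 3 called genes of each pathway list with the largest log2 difference, and for each member the 2 genes most like it, of which 1 is not reported here. The tests were tried on simulated data. For IFE suprabasal against basal cells 72% of 100 genes changed 2-fold and 90% of 100 changed 4-fold were recovered among 14847. Each library pooled 2 mice, so the p-values do not measure the spread between mice. With library as a block, those of the class comparisons rest on how class differences varied over libraries of different times. Those of the time course rest on how far the sums of a class lay from the spline.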

Additional observations from a re-analysis of the deposited data

Results flagged for a closer look

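In 4 cases the level moved in opposite directions between the 0 h and the 4 h library in 2 cell classes, and none of these differences was tested, as each time is 1 library. The 4 h to 0 h ratio of Erbb2 in upper follicle basal cells was 1.86 times that in IFE basal cells. The ratio of Hbegf in the outer bulge was 1.47 times that in IFE basal cells. For Epgn the ratio in IFE basal cells was 2.04 times that in upper follicle basal cells and 1.81 times that in the outer bulge. The direction of Epgn in the outer bulge turned at the finer clustering, where its ratio was 3.72.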

How the results depend on the processing

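Between time points no paired analysis was possible because each is 1 library and has no replicate, whereas the comparisons of cell classes were paired by library through the library block. Of 871 values of single genes under alternatives, 779 kept their direction and side of the threshold, 42 lost and 45 gained a call, and 5 reversed. Of the 38 class differences called, 23 stayed called under every alternative run and 0 reversed. The time course, with 0 calls, gave 3 with DESeq2, 4 with log2 of hours + 1, 3 with the rank of time, 2 without a filter on low counts and 0 to 12 without 1 library. Shares of all genes called in these fits are not given here. Without the library block the outer bulge had 4 calls against IFE basal cells in place of 8, and 2 against upper follicle basal cells in place of 5, which became 3 without doublet removal and 3 to 5 without 1 library. The difference in trend gave 0 to 2 without 1 library, and the shares of all genes in those fits are not given here either. The 5 reversed slopes were Btc in IFE suprabasal cells without 0 h (0.00733 per hour, range without 1 library -0.0846 to 0.00733), Areg in the inner bulge without a filter (0.000191) and without 4 h (2.86e-05, range -0.00418 to 0.00122), Ereg in the outer bulge per log2 of hours (-0.15) and Nrg1 there without 4 h (0.00113, range -0.0455 to 0.00113). The cause was not tested. Few UMIs of Btc and Ereg were counted outside suprabasal cells, and few of any of the genes in Langerhans cells, which limits their values there.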

Other observations

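Of the genes of the pathway lists, 2 were singled out after their values were seen. In IFE basal cells Dusp6, a phosphatase of ERK, was 72.2, 242, 118, 190, 82.7 and 60.7 CPM from 0 h to 6 d. Ier3, an immediate early gene, was 325, 35.9, 113, 271, 249 and 344 there. Dusp6 was thus highest and Ier3 lowest in the 4 h library. The other genes of the lists are not described by library here, and a link of these levels with Areg was not tested.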
